A study of Mus musculus with 4 samples.

Results

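The Olfr1264 neurons are the mature olfactory sensory neurons (OSNs) of the mouse whose deposited receptor identity is the odorant receptor gene Olfr1264. The identity was assigned by the authors from receptor transcripts alone, and 50 neurons carried it among 21809 cell barcodes, 15859 retained cells, 10519 mature OSNs and 9791 mature OSNs with a receptor identity. Cells of the main olfactory epithelium were taken from 4 male C57BL/6 mice aged 8 weeks, all unmanipulated and all in 1 group, and each mouse gave 1 single-cell RNA library. There was no treatment, genotype or time to compare, so the comparisons were made between groups of neurons within each mouse. The Olfr1264 neurons numbered 13, 12, 11 and 14 in mice 1 to 4, and values for the 4 mice are given in that order throughout.

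A mature OSN transcribes 1 odorant receptor gene out of a large family, and neurons that share a receptor are called a population; their axons converge on common glomeruli of the olfactory bulb. Odorants that bind the receptor activate the G protein encoded by Gnal, the adenylate cyclase Adcy3 and a cyclic nucleotide-gated channel in the cilia. Each receptor is used in a restricted zone of the epithelium, and dorsal and ventral neurons differ in genes such as Nqo1 (dorsal) and Nfix (ventral). The question here was how the transcriptome of neurons with 1 receptor differed from that of other neurons once all receptor genes were set aside.

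Olfr1264 lies on chromosome 2 (GRCm38, chr2:90018526-90025577, minus strand) and has 2 exons, with its coding sequence of 927 bases in 1 exon. It stands in a row of receptor genes. Among receptor populations with at least 3 neurons in every mouse and most of their neurons in the same cluster, the 3 receptors with the highest protein identity to it were Olfr140 at 77.3%, Olfr1239 at 64.0% and Olfr1263 at 61.8%. Their populations (34, 24 and 16 neurons) served below as a comparison group that shares receptor sequence and chromosome. The start of Olfr140 lies 30.9 kb from that of Olfr1264, Olfr1239 lies much farther away on the same chromosome, and the annotated 3′ ends of Olfr1263 and Olfr1264 face each other. The following 60 coding bases near the end of each coding sequence, from GENCODE M21 on GRCm38, show how far these receptors differ there. The libraries were made with 3′ chemistry, and reads over these bases were not examined. In the Olfr1264 line, capitals mark the 22 bases that differ from at least 1 of the other three, and in the other lines they mark the bases that differ from Olfr1264 (11, 11 and 18).
Olfr1264: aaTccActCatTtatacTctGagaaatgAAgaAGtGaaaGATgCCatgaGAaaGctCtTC
Olfr140: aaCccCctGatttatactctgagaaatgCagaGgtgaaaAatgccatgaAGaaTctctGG
Olfr1239: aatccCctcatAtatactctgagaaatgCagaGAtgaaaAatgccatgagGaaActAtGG
Olfr1263: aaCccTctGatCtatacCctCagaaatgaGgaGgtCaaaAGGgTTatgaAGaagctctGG

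The libraries held 4746 to 6003 barcodes and 23157467 to 32382702 unique molecular identifiers (UMIs, each standing for 1 captured transcript), with medians of 3624.5 to 5717.5 UMIs per barcode. Of all barcode sequences, 54 occurred in more than 1 library, and none of them belonged to an Olfr1264 neuron. The 50 neurons together held 289718 UMIs, with 72571, 56361, 92181 and 68605 in the 4 mice. Levels below are UMIs of a gene per 10000 UMIs in the sum over a mouse's neurons, as mean ± SD (n = 4 mice), and differences are log2 changes ± SE from a fit across all genes. The SE was taken as the size of the log2 change divided by the square root of the test's F statistic. It draws on variance shared across genes. It is therefore not the spread of 1 gene over the 4 mice, and it is approximate for genes with few UMIs. The floor set by 3 counts in the summed Olfr1264 neurons was 0.104 UMIs per 10000, which covers counting error only.

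The population made up 0.483%, 0.512%, 0.625% and 0.467% of the neurons with a receptor identity, a mean of 0.522% ± 0.0715 (SD, n = 4). The Wilson 95% intervals of the 4 shares ran from 0.278% to 1.12% in all and overlapped each other, and a difference between mice was not tested. When mature OSNs were clustered by the authors without receptor genes, all 50 neurons fell in the cluster named Ventral, where they made up 1.13% ± 0.235 of the cells. The authors drew further ventral clusters marked by Dlg2, Calb2, Cd55 or Cd36. The paper describes the cluster named Ventral by the absence of these markers. Ventral neurons below are those of this cluster, and Ventral populations are those with most of their neurons in it. Populations of the marked ventral clusters are thus left out of the ranks. The other 4550 neurons of the Ventral cluster form the main comparison group.

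The receptor transcript was abundant in every member. The 50 neurons held 2651 Olfr1264 UMIs, between 20 and 153 per neuron with a median of 51.5. Per mouse the level was 84.1, 92.6, 95.5 and 93.1 UMIs per 10000, or 91.3 ± 5.0, a narrow range. These values describe how the members were chosen. Among the 69 populations that lay mostly in the Ventral cluster and had at least 3 neurons in every mouse, the receptor level ranked 32nd, the others having a median of 80.9 and a range of 19.5 to 259. The similar receptors stood apart from it, at 40.1 for Olfr140, 39.0 for Olfr1239 and 166 for Olfr1263.

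In 35 of the 50 neurons no other receptor was detected, while 10 held 2 receptors and 5 held 3. The further receptors were faint. The highest was Olfr726 with 5 UMIs in 1 neuron, and 2 neurons held more than 1 UMI of another receptor. Olfr1372-ps1, a receptor pseudogene, gave 6 UMIs in 5 neurons, and Olfr1263 gave 2 UMIs in 2.

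Olfr1264 transcripts were rare outside the population. Of 10469 other mature OSNs, 13 held an Olfr1264 UMI (0.124%), and the 5 neurons among them with 5 UMIs or more (19 to 111) all carried a second receptor above the authors' threshold and had no identity. In basal, sustentacular and microvillar cells, which should not express a receptor, 4 of 3184 cells held a UMI (0.126%, Wilson 95% interval 0.0489% to 0.323%, median 5375 UMIs per cell). Immature OSNs were read against that background. The share was 0.693% of 866 cells labelled iOSN1 (interval 0.318% to 1.5%, median 6830.5 UMIs) and 0.398% of 1006 labelled iOSN2 (interval 0.155% to 1.02%, median 7301.5 UMIs). Both shares were above the background share. Both intervals overlapped that of the background, for iOSN1 only between 0.318% and 0.323%. Such overlap is no test, and the difference was not tested. In iOSN1, 3 of the 6 positive cells held 65, 27 and 57 UMIs, and no iOSN2 cell held more than 1. High counts also occurred in the background, where 2 of the 4 positive cells held 53 and 46 UMIs. In 336 sustentacular cells none had a UMI, which allows a share of cells with a detected UMI of up to 0.893% by the limit of 3 counts (Wilson upper limit 1.13%).

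**Figure D1:**
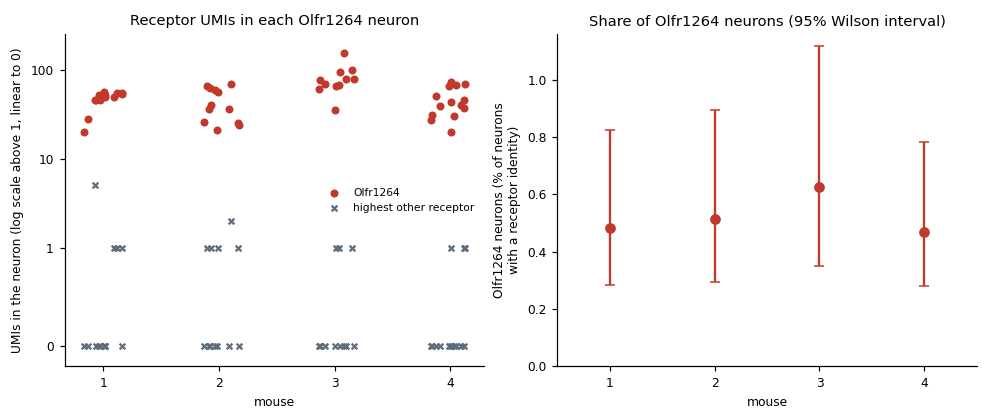
Olfr1264 UMIs and the UMIs of the highest other receptor in each of the 50 neurons by mouse. The second panel gives the share of Olfr1264 neurons among neurons with a receptor identity in each mouse, with its Wilson 95% interval. Single neurons held 20 to 153 Olfr1264 UMIs, which is 40.3 to 168 per 10000. The shares ranged from 0.467% to 0.625%, with overlapping intervals.

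The label of a mature, ventral neuron was read on markers. The authors named mature OSNs and the Ventral cluster with several of these same genes (Omp, Gng13, Gap43, Nfix, Nqo1), so their levels describe the choice of cells and are no separate check of it. Omp, the olfactory marker protein, was at 76.7 ± 7.74 in the Olfr1264 neurons and 78.6 ± 3.72 in the other Ventral neurons. Gng13, the G protein gamma subunit of mature OSNs, was at 108 ± 11.1 and 94.9 ± 3.85. Neither was called in edgeR's quasi-likelihood test (adjusted p = 0.99 and 0.72), whereas 3 of 9 tested markers of mature neurons were lower (Stoml3, Gnal and Cnga4, described with the transduction genes), where 0.512% of all genes tested were lower. The summed list of 12 immature neuron markers lay between 16.1 and 18.5 per mouse against 17.2 to 18.1 in the other Ventral neurons. Of its genes, Gng8, Neurod1 and Neurog1 were at 0, and Gap43 was at 0.142 ± 0.164 against 0.146 ± 0.0172. The ventral marker Nfix was at 5.35 ± 1.11, and the dorsal marker Nqo1 gave 1 UMI in all 50 neurons. Of the sustentacular markers, 7 of 8 (Cyp2g1, Cyp1a2, Ermn, Sult1c1, Muc2, Gstm2, Sox2) were at 0, and the summed list lay between 0 and 0.177 per mouse against 0.143 to 0.184 in the other Ventral neurons. The basal markers Krt5, Krt14, Trp63, Kit, Mki67 and Top2a and the immune markers Ptprc, Tyrobp, Cd52, Ctss and Cybb were also at 0. The summed basal list lay between 0 and 0.146 per mouse against 0.0272 to 0.0621, and the summed immune list between 0 and 0.355 against 0.0437 to 0.203, so both reached higher in the Olfr1264 neurons through 1 or 2 UMIs each of Krt15, C1qa, Igkc and Lyz2, and their part in the differences below was not tested. The summed microvillar list (8 genes, 6 at 0) was at 0.355 to 0.689 against 0.389 to 0.410, the summed gland list at 0.138 to 0.759 against 0.134 to 0.683, and the summed blood list at 0.276 to 1.42 against 0.113 to 1.35. Few of these genes had enough counts to be tested (1 of 8 sustentacular, 2 of 8 microvillar, 0 of 8 basal, 1 of 8 immune, 4 of 5 blood and 2 of 9 gland markers), and none of those was called by edgeR.

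Depth was slightly higher than in the cluster. The median UMI count of the Olfr1264 neurons was 5755 ± 1686 (SD over mice) against 5108 ± 1200, higher in 4 of 4 mice, and their median number of detected genes was 2524 against 2343. With 4 mice an exact two-sided sign-flip permutation test cannot give a p below 0.125, which was the value for both. The mitochondrial share was 1.39% against 1.32% (exact permutation p = 0.75). Thinning every neuron to 5000 UMIs left 25 Olfr1264 neurons and 30 calls in the comparison below, all of them among the calls made at full depth.

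Against the other Ventral neurons, 89 of 10151 genes differed at an adjusted p of 0.05 in edgeR's quasi-likelihood test with the mouse as a block (0.877% of the genes tested). Of these, 37 were higher (0.364%) and 52 lower (0.512%) in the Olfr1264 neurons. With scaling factors taken from all kept genes the calls were 25 higher and 89 lower, the median log2 change of all genes then being −0.18 in place of −0.05. The smallest adjusted p among higher genes was that of Gm31557, a long noncoding RNA, and among lower genes those of Cartpt, a neuropeptide precursor, and Cmip, the c-Maf inducing protein. The Ventral cluster was drawn by the authors from these same non-receptor genes and pools many populations, so the level of most genes described below is also given as a rank among the 69 Ventral populations, 1 being the highest level. Calls that lost significance without 1 mouse are stated with the highest adjusted p. Losses under the other alternatives, such as DESeq2 or thinning, are stated for some genes only. Of the 89 calls, 20 held without any 1 mouse and under every other alternative that gave them an adjusted p.

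Gm31557 (chr9:46666273-46674844, plus strand) was at 4.41, 2.31, 4.34 and 2.77 in the Olfr1264 neurons and at 0.902, 0.670, 0.493 and 0.835 in the other Ventral neurons. Each mouse's Olfr1264 neurons exceeded every value of the comparison group. The log2 change was 2.30 ± 0.20, a 4.92-fold higher level (adjusted p = 4.5e-28), and the call held without any 1 mouse. Its level ranked 5th of the 69 populations, whose median was 0.0890 and maximum 6.86 (the Olfr731 neurons), so most Ventral populations held very little of it and a few held as much or more.

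Other noncoding transcripts were higher at lower levels. Gm49542, a long intergenic RNA on chromosome 14 that overlaps the gene model Gm6999 on the same strand, was at 1.38, 0.532, 0.542 and 0.583 against 0.126 ± 0.0179. All 4 mice showed the direction, with mouse 1 well above the others and a mean that ranked 3rd, and the log2 change was 2.59 ± 0.48 (edgeR adjusted p = 3.0e-05; 0.15 without mouse 1). Its reads could not be assigned between the overlapping models here. Gm6999 also overlaps Olfm4 on the same strand. Olfm4, named after its values were seen, was called higher too (log2 change 3.15, edgeR adjusted p = 0.025). That call was lost without any 1 of the 4 mice (adjusted p up to 0.68), and whether both genes share reads was not tested. Gm15848, antisense to Fcamr and also chosen after its values were seen, reached only 15 UMIs from 10 neurons, yet its level of 0.485 ± 0.302 was above that of all other Ventral populations (maximum 0.299), with 0.0321 ± 0.00563 in the pooled cluster (log2 change 3.97 ± 0.66, adjusted p = 0.085 without mouse 3).

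Rarb and Dhrs3 were higher, and each lost its call without single mice. Rarb, retinoic acid receptor beta, was at 0.689, 0.355, 0.651 and 0.437 against 0.120, 0.124, 0.143 and 0.115. The groups did not overlap, and the level ranked 6th. The log2 change was 2.08 ± 0.54 (edgeR adjusted p = 0.016) and rested on 16 UMIs. The call was lost without mouse 1, 3 or 4 (adjusted p up to 0.35) and under other alternatives, thinning among them (up to 0.998). Dhrs3, a reductase that turns retinaldehyde back into retinol, was at 1.65, 1.06, 1.08 and 1.31 against 0.554 ± 0.0678. It was higher in 4 of 4 mice, 2nd of 69 populations, with a log2 change of 1.15 ± 0.29 (edgeR adjusted p = 0.013). The call was lost without mouse 1, 2 or 4 (adjusted p up to 0.35) and after thinning (0.89).

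Rasl11a, a small GTPase of the Ras-like family, was at 1.52, 1.77, 2.93 and 3.35 against 0.999, 0.893, 0.781 and 1.11. No value overlapped, and the log2 change of 1.35 ± 0.21 (edgeR adjusted p = 2.0e-07) held without any 1 mouse, its level ranking 8th. Scgn, the calcium sensor secretagogin, was at 1.64 ± 0.287 against 0.758 ± 0.0818 (log2 change 1.12 ± 0.25, adjusted p = 0.0023). All 4 mice were higher and the level ranked 9th, but the call was lost without mouse 3 or 4 (adjusted p up to 0.10). Cabp4, a calcium-binding protein known from photoreceptor synapses, was at 1.05 ± 0.130 against 0.464 ± 0.0334 (log2 change 1.17 ± 0.32, adjusted p = 0.034). The level ranked 7th, and its call was lost without any 1 of the 4 mice (adjusted p up to 0.38).

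The rest of the largest higher genes had varied roles. Metrnl, a secreted factor, was at 0.965, 1.24, 0.759 and 1.02 against 0.378 ± 0.0125, and no other Ventral population had a higher mean (maximum 0.988). Its call (log2 change 1.33 ± 0.35) was lost without any 1 of the 4 mice, with an adjusted p of up to 0.22. Eci3, an enoyl-CoA isomerase of fatty acid oxidation whose gene overlaps Gm47217 on the same strand, was at 0.276, 0.887, 0.651 and 0.729 against 0.159 ± 0.0413 and ranked 2nd (log2 change 1.99 ± 0.50; lost without mouse 2, 3 or 4, adjusted p up to 0.30). Mgmt, a DNA repair methyltransferase, was at 1.38 ± 0.470 against 0.637 ± 0.0388 and ranked 10th (log2 change 1.10 ± 0.28; lost without mouse 1 or 4, adjusted p up to 0.61).

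Some more abundant genes gave smaller differences, and those of this paragraph were chosen after their values were seen, for calls that mostly held without any 1 mouse. Fkbp2, a prolyl isomerase of the endoplasmic reticulum, was at 8.68, 5.86, 8.90 and 9.04 against 4.74, 4.44, 4.24 and 4.94. It did not overlap between the groups, and its mean of 8.12 ± 1.52 was the highest of all 69 Ventral populations, of which the next reached 8.09 (log2 change 0.82 ± 0.12, edgeR adjusted p = 2.6e-09). Pdlim1, a PDZ and LIM domain protein, was at 5.18 ± 1.61 against 2.51 ± 0.249 (log2 change 1.03 ± 0.14), and Ifi27, an interferon-inducible mitochondrial protein, at 4.19 ± 1.53 against 1.98 ± 0.549 (log2 change 1.07 ± 0.16). Both ranked lower, 12th and 11th, since several Ventral populations held as much. Prdx2, a peroxiredoxin, was at 7.18 ± 0.321 against 4.68 ± 0.190, and Cd9, a tetraspanin, at 10.8 ± 1.72 against 7.08 ± 1.11, which ranked 14th and 13th. These 5 genes were called without any 1 mouse, although Prdx2 was lost among neurons with exactly 1 receptor detected (adjusted p = 0.078) and after thinning (0.14). Rd3, a regulator of guanylate cyclase known from photoreceptors, was at 10.6, 6.74, 9.22 and 8.89 against 6.08 ± 0.175, the highest mean of the 69 populations, but its call was lost without mouse 1 (adjusted p = 0.15).

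**Figure D2:**
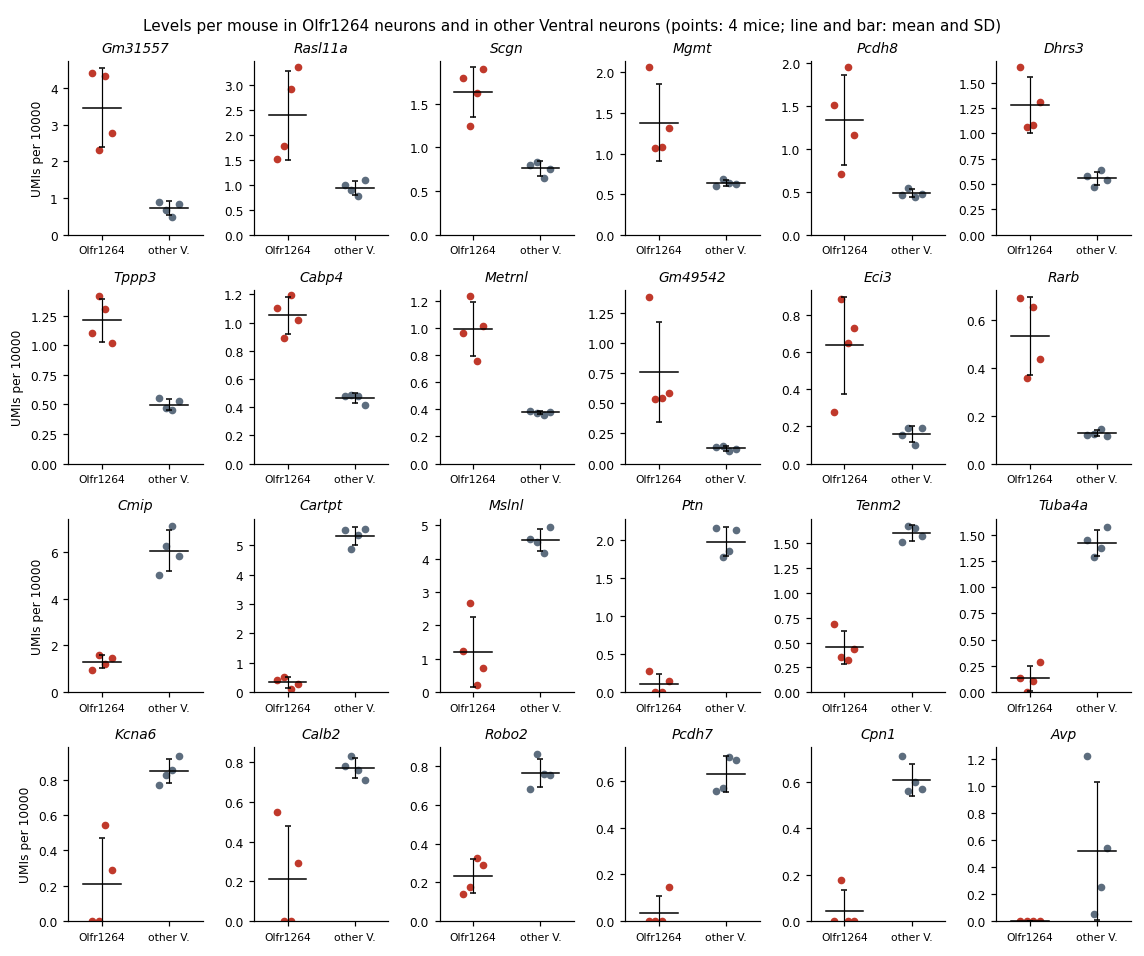
Level of the named genes in UMIs per 10000 in the Olfr1264 neurons and the other Ventral neurons, with 1 point per mouse, the mean and the SD (bars cut off at 0). Gm31557 was 3.46 ± 1.08 against 0.725 ± 0.183, Cartpt 0.336 ± 0.181 against 5.31 ± 0.312 and Cmip 1.30 ± 0.281 against 6.05 ± 0.879, with no overlap between the groups for any of the 3.

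Among the lower genes, several were called whichever mouse was left out. Cmip (chr8:117257064-117459430, plus strand) was at 0.965, 1.60, 1.19 and 1.46 in the Olfr1264 neurons and at 5.01, 6.26, 7.11 and 5.80 in the other Ventral neurons. The difference was larger than the spread in either group, a 4.87-fold lower level (log2 change −2.28 ± 0.19, edgeR adjusted p = 9.0e-29), and the level was the second lowest of the 69 populations, whose median was 5.96. Cmip was thus widely present in Ventral populations and low in this one.

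Cartpt (chr13:99898489-99901091, minus strand) was at 0.413, 0.532, 0.108 and 0.292 against 5.51, 4.87, 5.33 and 5.55. This was a 17.5-fold lower level (log2 change −4.13 ± 0.28, edgeR adjusted p = 9.8e-45) that rested on 9 UMIs. Here the cluster was uneven, since its populations had a median of 2.73 and a maximum of 25.5 in the Olfr794 neurons, and 13 populations lay below the Olfr1264 neurons. Ptn, the secreted growth factor pleiotrophin, gave 3 UMIs from 2 neurons and levels of 0.276, 0, 0 and 0.146 against 1.98 ± 0.193. The ratio of the pooled levels was 19.3 with a 95% counting interval of 6.62 to 93.9 (edgeR adjusted p = 1.6e-17), and the call held without any 1 mouse while the log2 change moved from −4.28 to −5.41 without mouse 1.

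The genes of this paragraph were again chosen after their values were seen, for calls that held without any 1 mouse. Tmbim6, an endoplasmic reticulum membrane protein, was at 7.03, 7.98, 5.86 and 5.68 against 15.7, 15.1, 16.5 and 15.2. It was 2.44-fold lower (log2 change −1.29 ± 0.12, edgeR adjusted p = 7.5e-25), 4th from the lowest of 69 populations. Prnp, the prion protein gene, had the lowest mean of all 69, at 3.46 ± 0.710 against 6.27 ± 0.251 (log2 change −0.89 ± 0.15). Pth2, a neuropeptide precursor of the parathyroid hormone family, was at 1.27 ± 0.632 against 2.84 ± 0.316 (log2 change −1.28 ± 0.22), and Serpine2, a secreted protease inhibitor, at 9.36 ± 1.69 against 15.4 ± 0.386 (log2 change −0.77 ± 0.11), both 4th from the lowest. All 4 genes were lower in every mouse without overlap and kept their calls without any 1 mouse.

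Mslnl, a mesothelin-like protein, was at 1.24, 2.66, 0.217 and 0.729 against 4.58, 4.48, 4.15 and 4.95. The level was 15th from the lowest, and the log2 change of −2.10 ± 0.21 (edgeR adjusted p = 5.5e-20) moved to −2.78 without mouse 2. Tuba4a, an alpha tubulin, gave 4 UMIs and levels of 0.138, 0, 0.108 and 0.292 against 1.42 ± 0.121 (log2 change −3.39 ± 0.47), yet with a population median of 0.247 it was low in many Ventral populations. Cpn1, the catalytic subunit of carboxypeptidase N, gave 1 UMI, in mouse 2, against 0.610 ± 0.0694, a ratio of 17.8 with a counting interval of 3.19 to 704. Without that mouse no Cpn1 UMI remained in the Olfr1264 neurons, and the call held whichever mouse was left out but was lost with DESeq2 (adjusted p = 0.056) and after thinning (0.40).

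Kcna6, a voltage-gated potassium channel subunit, was at 0, 0, 0.542 and 0.292 against 0.847 ± 0.0679, the lowest of the 69 populations. Its log2 change of −1.84 ± 0.45 (edgeR adjusted p = 0.0091) was lost without mouse 1, 2 or 4 (adjusted p up to 0.20) and moved to −3.08 without mouse 3. Avp, the vasopressin precursor, was at 0 in all 4 mice against 1.22, 0.0528, 0.253 and 0.543 in the pooled cluster. That pool was uneven, the Olfr1346 neurons alone reaching 62.8 and the median population 0, and the call was lost without mouse 1 (adjusted p = 0.20). The Avp call was also lost with DESeq2 and without the replicate block (adjusted p up to 0.47).

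**Figure D3:**
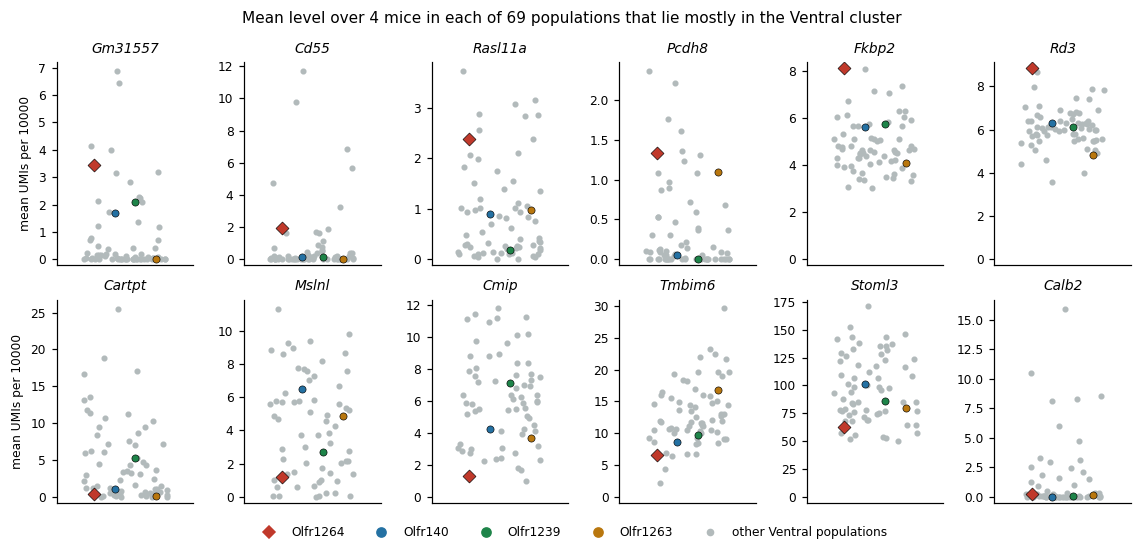
Mean level of 12 genes in UMIs per 10000 in each of the 69 Ventral populations, with the Olfr1264 neurons as a diamond and the populations of the 3 similar receptors in colour. The Olfr1264 neurons had the highest Fkbp2 (8.12) and Rd3 (8.87) levels and the second lowest Cmip level (1.30), whereas for Gm31557 (3.46) other populations reached 6.86.

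Of 23 genes of odorant transduction, 20 were tested, none was higher and 4 were lower, where 0.512% of all genes tested were lower, with a median log2 change of −0.21 against −0.05 over all genes tested. Stoml3, a stomatin-like protein of the OSN cilia, carried the clearest difference, at 62.3, 64.4, 54.6 and 70.5 against 101.5, 92.2, 90.4 and 95.1. The groups did not overlap, the log2 change was −0.62 ± 0.08 (edgeR adjusted p = 1.8e-10; kept without any 1 mouse), and the level was ninth from the lowest of 69. Gnal was at 22.7 ± 3.00 against 29.0 ± 1.60 (log2 change −0.38 ± 0.09; lost without mouse 1 or 4, adjusted p up to 0.19). Pde4a, a cyclic AMP phosphodiesterase, was at 4.51 ± 1.28 against 6.36 ± 0.570 (lost without mouse 3 or 4, adjusted p up to 0.47). Cnga4, a subunit of the cyclic nucleotide-gated channel, was at 2.76, 6.39, 3.47 and 2.62 against 5.33 ± 0.0996, so mouse 2 went the other way, and its call was lost without mouse 1, 3 or 4 (adjusted p up to 0.45). Cnga2, the principal channel subunit, was at 6.36 ± 1.15 against 8.25 ± 0.320 (adjusted p = 0.097), and Adcy3 at 11 ± 2.31 against 12.4 ± 0.952 (adjusted p = 0.75).

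Guidance and adhesion genes, which bear on where axons grow and whom they contact, held 9 of the 89 calls. Of 66 listed genes 39 were tested, 1 was higher and 8 were lower, where 0.877% of all genes tested were called (median log2 change −0.38, or −0.35 with genes at 0 set to their bound, against −0.05 over all genes). The higher gene was Pcdh8, a protocadherin, at 1.52, 0.710, 1.95 and 1.17 against 0.461, 0.548, 0.445 and 0.478. It did not overlap between the groups and ranked sixth (log2 change 1.53 ± 0.29), its call being lost without mouse 3 (adjusted p = 0.13). Tenm2, a teneurin, was at 0.689, 0.355, 0.325 and 0.437 against 1.51, 1.68, 1.65 and 1.57 (log2 change −1.86 ± 0.33, edgeR adjusted p = 7.5e-06) and kept its call without any 1 mouse. Tenm4 was at 0 in all mice against 0.301 ± 0.0430, at least 2.91-fold lower, and was lost without any 1 of them (adjusted p up to 0.19). Pcdh7, another protocadherin, gave 1 UMI, in mouse 4, against 0.630 ± 0.0770, a ratio of 18.2 with a counting interval of 3.26 to 719. It was called without any 1 mouse (fitted log2 change −4.22, −3.60 without mouse 3, and no UMI left without mouse 4) and lost after thinning (adjusted p = 0.093), and the typical Ventral population held as little (median 0.0536) and the Olfr309 neurons reached 5.38.

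Ncam1, the neural cell adhesion molecule, had the lowest level of the 69 populations, at 11.6, 11, 8.90 and 9.77 against 13.3, 14.3, 14.3 and 13.9. The difference was modest and without overlap (log2 change −0.47 ± 0.11, edgeR adjusted p = 0.0017). The Ncam1 call was lost without mouse 3 (adjusted p = 0.21) and after thinning (0.998). Robo2, a receptor of the Slit guidance cues, was at 0.138, 0.177, 0.325 and 0.292 against 0.766 ± 0.0728 (log2 change −1.68 ± 0.47), and its call was lost without any 1 of the 4 mice (adjusted p up to 0.24). Pcdh19 (2 UMIs), Igf1r and Sema6a were the other lower members, at 0.0616 ± 0.0721, 1.01 ± 0.151 and 0.275 ± 0.218 against 0.484 ± 0.0734, 1.85 ± 0.261 and 0.746 ± 0.0873. Each lost its call without single mice, Pcdh19 without mouse 2, 3 or 4 (adjusted p up to 0.26; log2 change −2.83, and −3.52 without mouse 1), Igf1r without any 1 of the 4 (up to 0.58) and Sema6a without mouse 1, 3 or 4 (up to 0.83; log2 change −1.65, and −1.03 without mouse 3).

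A list of genes by which the authors named OSN subsets (Dlg2, Calb2, Cd55, Cd36, Nqo1, Nfix) or that they displayed beside them was read next. The list also held Mustn1, which the paper reports as raised after odorant exposure in other mice. The rest was picked on these samples, so the list is no independent evidence of a direction, and the clusters were drawn from the same genes. Of 15 genes 13 were tested, 3 were higher (Cd55, Pcdh8, Tppp3) and 6 lower (Ptn, Nqo1, Calb2, Adam28, Dlg2, Stoml3), where 0.364% of all genes tested were higher and 0.512% lower. The median log2 change of the list was −0.10 against −0.05 over all genes. Cd55, a complement regulator, was at 0.413, 1.95, 3.47 and 2.04 against 0.684, 0.653, 0.594 and 0.721, and its mean ranked 7th. Mouse 1 lay below the comparison group and the other mice above it, so the log2 change of 1.61 ± 0.24 (edgeR adjusted p = 1.6e-08) fell to 1.02 without mouse 3 (adjusted p = 0.18). Tppp3, which promotes tubulin assembly, was at 1.10, 1.42, 1.30 and 1.02 against 0.497 ± 0.0472 without overlap, and ranked 13th (log2 change 1.26 ± 0.30; adjusted p up to 0.19 without mouse 2 or 3).

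Calb2, the calcium buffer calretinin, gave 6 UMIs and levels of 0.551, 0, 0 and 0.292 against 0.771 ± 0.0489. Its log2 change was −1.91 ± 0.49 (edgeR adjusted p = 0.014, up to 0.54 without mouse 2 or 3), and −3.09 without mouse 1. Nqo1 gave 1 UMI against 0.480 ± 0.0799, a ratio of 13.8 with a counting interval of 2.47 to 545. Its edgeR adjusted p of 0.0037 rose to 0.071 without mouse 1, and without mouse 3 no UMI remained. The Nqo1 call was also lost with DESeq2 and after thinning (adjusted p up to 0.998). Adam28, a membrane metalloprotease family member, was at 0.483 ± 0.140 against 1.29 ± 0.0543 (adjusted p up to 0.094 without mouse 1 or 3), and Dlg2, a synaptic scaffold, at 0.969 ± 0.281 against 1.80 ± 0.236 (up to 0.64 without mouse 1, 3 or 4). Calb2 and Nqo1 were unevenly spread over the cluster. So was Adam28, at 0 in the Olfr1178 neurons and 3.17 in the Olfr727 neurons. The median Ventral population had a Calb2 level of 0.106 and a Nqo1 level of 0, so the Olfr1264 neurons, at 0.211 ± 0.265 and 0.0271 ± 0.0542, lay below the pooled cluster and above the median population, ranking 27th and 31st.

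Activity-dependent genes are those whose transcript level changes with stimulation of the neuron, in either direction. Counts of higher and lower genes and the median of this list therefore give no level of activity. Of 30 listed names, 2 of them for H2bc21, 29 were in the matrix and 21 were tested. Of those tested 1 was higher (H2bc21) and 2 lower (Pcp4l1 and Calb2), where 0.877% of all genes tested were called. The median log2 change of the list was −0.17 against −0.05 over all genes. H2bc21, a histone H2B gene of a family with near-identical copies, was at 8.02 ± 1.17 against 5.82 ± 0.479 (log2 change 0.42 ± 0.12). Its call was lost without mouse 1, 2 or 4 (edgeR adjusted p up to 0.72). It was also lost with DESeq2, after thinning and under other alternatives (adjusted p up to 0.998). Pcp4l1, a small calmodulin-binding protein, was at 10.1, 12.8, 9.11 and 10.2 against 13.9, 14.2, 18.6 and 16.6, without overlap (log2 change −0.64 ± 0.11, edgeR adjusted p = 6.6e-07; kept without any 1 mouse). S100a5, a calcium-binding protein whose level in OSNs follows activity, was the most abundant of the list and was at 231 ± 14.5 against 208 ± 16.1 (adjusted p = 0.85). Fos, an immediate early gene, was at 0.748 ± 0.308 against 0.874 ± 0.139 (adjusted p = 0.99).

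The remaining lists are given beside the 0.364% of all genes that were higher and the 0.512% that were lower, with a median log2 change of −0.05. The lists do not hold every gene of their kind, so called genes outside them are named beside the counts. Of 12 tested calcium-binding genes 2 were lower, Calb2 and Pcp4l1, and none was higher (median log2 change −0.40), while Scgn and Cabp4, which were higher, are not on this list. Of 11 tested genes for secreted signals 3 were lower and none higher (median −0.25), namely Cartpt, Ptn and Fstl5, the last at 16.9 ± 2.32 against 22.3 ± 0.775 (log2 change −0.44 ± 0.09; adjusted p = 0.11 without mouse 1). Outside this list Metrnl was higher and Pth2 and Avp lower, as given above. Chromogranin A (Chga), the most abundant of them, was at 34.4 ± 2.04 against 30.1 ± 0.794 (adjusted p = 0.72). Of 28 tested genes for voltage-gated channels 1 was lower, the sodium channel Scn9a at 5.24 ± 1.12 against 7.84 ± 0.496 (log2 change −0.59 ± 0.13; adjusted p = 0.081 without mouse 1), and Kcna6, also lower, is not on the list. Of 27 tested presynaptic genes and neuromodulator receptors 1 was lower, the adiponectin receptor Adipor1 at 3.59 ± 1.08 against 5.53 ± 0.192 (adjusted p = 0.37 without mouse 4).

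Of 37 tested transcription regulators 1 was higher, Emx2, a homeobox gene of OSN development, and Rarb (higher) and Casz1, a zinc finger factor (lower; named after its values were seen), were called outside the list. Emx2 was at 1.10, 1.24, 2.17 and 2.62 against 1.02, 0.954, 0.980 and 0.732 and ranked 3rd of 69 (log2 change 0.95 ± 0.24, edgeR adjusted p = 0.011). All mice were higher, mice 3 and 4 by the most, and the call was lost without either of those (adjusted p up to 0.81). The Emx2 call was also lost with DESeq2, in neurons with exactly 1 receptor detected and after thinning (adjusted p up to 0.998). Lhx2 and Ebf1, regulators of receptor choice and OSN identity, were at 4.87 ± 1.21 against 5.08 ± 0.142 and at 14.7 ± 1.90 against 12.4 ± 0.148 (adjusted p = 0.98 and 0.56). None of 30 tested genes of receptor trafficking and stress feedback was called by edgeR. Outside this list Dnajb9, an endoplasmic reticulum chaperone named after its values were seen, was lower (log2 change −1.02, edgeR adjusted p = 0.00071). Its call was lost without mouse 4 (adjusted p = 0.065) and with DESeq2 (0.055). Tmbim6 (lower) and Fkbp2 (higher), given above, are not on the list either. The regulator Atf5 was at 31.9 ± 1.81 against 32.3 ± 0.538 and the chaperone Hspa5 at 4.98 ± 1.43 against 3.77 ± 0.262 (adjusted p = 0.99 and 0.26). None of 9 tested immature neuron markers was called either.

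Genes within 2 Mb of Olfr1264 on chromosome 2 were examined for differences shared with the locus. None of the 24 tested non-receptor genes within 2 Mb was called in the edgeR test against the Ventral cluster, and the smallest adjusted p was 0.33, for the microtubule regulator Ckap5. The nearest of them, Ptprj, starts 411 kb away, and all of them start at higher coordinates than Olfr1264. No non-receptor gene nearer to it, or on its other side, was tested.

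Compared with all 9489 other neurons with an identity and a cluster, 115 of 11299 genes differed (1.02%), 44 of them higher (0.389%) and 71 lower (0.628%). The same member sums entered both comparisons, so the values below stand beside those above and are no separate evidence. Markers of position are given first. All Olfr1264 neurons lie in the Ventral cluster, which the authors set apart from dorsal clusters by Nqo1 and Nfix. The wider group holds the dorsal neurons. A low Nqo1 level against it was thus fixed by the choice of cells, and its p-value is no test of it. Nqo1, an enzyme of dorsal OSNs, gave its single UMI against 7.23, 8.12, 8.60 and 5.26, a ratio of 210 with a counting interval of 37.7 to 8301 (edgeR adjusted p = 8.7e-78). Acsm4, an acyl-CoA synthetase of dorsal OSNs, was at 0 in all mice against 1.87, 1.37, 1.80 and 1.25, at least 15.2-fold lower (adjusted p = 1.2e-18). Robo2, which is graded along the epithelium, was at 0.233 ± 0.0897 against 1.24 ± 0.127 (log2 change −2.41 ± 0.41). All these calls held without any 1 mouse, the single Nqo1 UMI being that of mouse 3, and Robo2 was lost after thinning (adjusted p = 0.077).

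Of 12 tested genes of the position list 3 were higher and 3, those just given, lower, where 0.389% of all genes were higher and 0.628% lower. Ncam2, an adhesion molecule of ventral OSNs, was at 1.24, 2.66, 2.28 and 2.62 against 0.867, 1.12, 0.967 and 1.05, higher in all mice with no overlap (log2 change 1.07 ± 0.22, edgeR adjusted p = 0.00023). It ranked second among the Ventral populations, and its call was lost after thinning (adjusted p = 0.11). The transcription factor Nfib was at 2.31 ± 0.475 against 1.25 ± 0.146 (adjusted p up to 0.17 without mouse 3 or 4) and Cidea, a lipid droplet protein, at 2.65 ± 0.765 against 1.31 ± 0.207 (adjusted p = 0.065 without mouse 3). Nfix, at 5.35 ± 1.11 against 3.93 ± 0.480, was not called (adjusted p = 0.29).

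The other genes of the largest differences were partly those of the first comparison. Cartpt was at 12.3 ± 1.17 in the wider group and so 41.4-fold lower in the Olfr1264 neurons (edgeR adjusted p = 1.1e-104), Ptn at 2.56 ± 0.291 (log2 change −4.69 ± 0.43, and −5.78 without mouse 1) and Calb2 at 3.60 ± 0.364. Cd36, a fatty acid translocase that marks 1 subset, gave 1 UMI against 0.743 ± 0.135, a ratio of 21.1 with a counting interval of 3.78 to 834, and no UMI without mouse 4. Low Calb2 and Cd36 levels were likewise set by the choice of cells. The Ventral cluster was described by their absence, and the wider group holds the clusters that they mark. Socs2, a suppressor of cytokine signalling, was at 0 against 0.562 ± 0.118, at least 5.43-fold lower (adjusted p = 0.082 after thinning). On the higher side, Gm31557 differed by a log2 change of 2.29 ± 0.19, Pdlim1 by 1.78 ± 0.15 and Ifi27 by 1.77 ± 0.17, all without overlap and called without any 1 mouse. Rarb (2.68 ± 0.57) was lost without mouse 1 or 3 (adjusted p up to 0.076) and Eci3 (1.97 ± 0.49) without mouse 2, 3 or 4 (up to 0.25). Cd55, by contrast, was at 2.11 ± 0.230 in the wider group and not called (adjusted p = 0.98).

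Against the 74 neurons of Olfr140, Olfr1239 and Olfr1263, 26 of 1615 genes differed (1.61%), 13 each way (0.805%). The comparison sums were small, and fewer genes passed the count filter. With DESeq2 6 of the 26 were called, and Rasl11a, Scgn, Gm31557, Stmnd1 and Ift20 were among those that were not. Rasl11a was at 1.52, 1.77, 2.93 and 3.35 against 0.220, 1.03, 0.906 and 0.687 (log2 change 1.79 ± 0.33, edgeR adjusted p = 4.4e-05; 0.088 without mouse 4). Its mean of 2.39 was above that of each of the 3 populations alone, which had 0.895 ± 0.631, 0.177 ± 0.353 and 0.979 ± 0.461 in the order given, and its values overlapped with those of Olfr140 and Olfr1263. Scgn was at 1.64 ± 0.287 against 0.520 ± 0.177 (log2 change 1.64 ± 0.41; adjusted p = 0.17 without mouse 4). Ifi27 was at 4.96, 1.95, 5.32 and 4.52 against 1.25, 0.736, 1.56 and 3.04, higher in every mouse although the ranges overlapped (log2 change 1.36 ± 0.23). Its call held without any 1 mouse but not with DESeq2 (adjusted p = 0.076). Stmnd1, a stathmin domain protein, was at 2.21 ± 0.514 against 1.00 ± 0.126 (log2 change 1.11 ± 0.30; lost without mouse 1, 2 or 4, adjusted p up to 0.42).

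The level of Gm31557 was 3.46 ± 1.08 in the Olfr1264 neurons, 1.70 ± 0.802 in the Olfr140 neurons, 2.08 ± 1.21 in the Olfr1239 neurons and 0 in all 4 mice in the Olfr1263 neurons. Against the pooled 3 the log2 change was 1.32 ± 0.25 (edgeR adjusted p = 6.5e-05; 0.14 without mouse 3). The Olfr1264 values overlapped those of Olfr140 and Olfr1239.

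Lower than in the similar populations were Cmip, at 1.30 ± 0.281 against 4.26 ± 0.526, 7.13 ± 1.73 and 3.70 ± 1.28 (pooled log2 change −1.97 ± 0.24), and Mslnl, at 1.21 ± 1.05 against 6.51 ± 1.89, 2.68 ± 0.773 and 4.85 ± 0.460 (−2.26 ± 0.26, and −2.96 without mouse 2). Every Cmip value of the Olfr1264 neurons lay below every value of the other three. Cartpt was low in several of these populations, at 0.336 ± 0.181 against 1.04 ± 0.294, 5.31 ± 1.48 and 0.127 ± 0.255. The pooled call for Cartpt (log2 change −2.79 ± 0.42, edgeR adjusted p = 1.2e-07) pooled populations with higher and lower means than that of the Olfr1264 neurons, and no test was run against each alone. Pcp4l1 was at 10.5 ± 1.57 against 22.3 ± 7.16, 13.2 ± 1.04 and 29.5 ± 9.02 (−1.06 ± 0.13), and Stoml3 at 63.0 ± 6.60 against 101 ± 7.87, 86.2 ± 8.39 and 79.6 ± 11.2 (−0.59 ± 0.10). Cmip, Mslnl, Cartpt, Pcp4l1 and Stoml3 were called without any 1 mouse, Mslnl being lost with DESeq2 (adjusted p = 0.14). Ift20, an intraflagellar transport protein, was at 1.5 ± 0.543 against 3.03 ± 0.461 in the pool (log2 change −1.03 ± 0.26; lost without mouse 1, 2 or 4, adjusted p up to 0.48).

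S100a5 was lower than in the similar populations, at 250, 217, 233 and 223 against 335, 235, 329 and 392.5 (log2 change −0.50 ± 0.10, edgeR adjusted p = 0.00016; adjusted p = 0.39 without mouse 4). By population the level was 382 ± 101 for Olfr140, 205 ± 47.4 for Olfr1239 and 359 ± 77.5 for Olfr1263, so Olfr1239 lay near the Olfr1264 neurons. Against the Ventral cluster the same gene was not called, as given above.

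**Figure D4:**
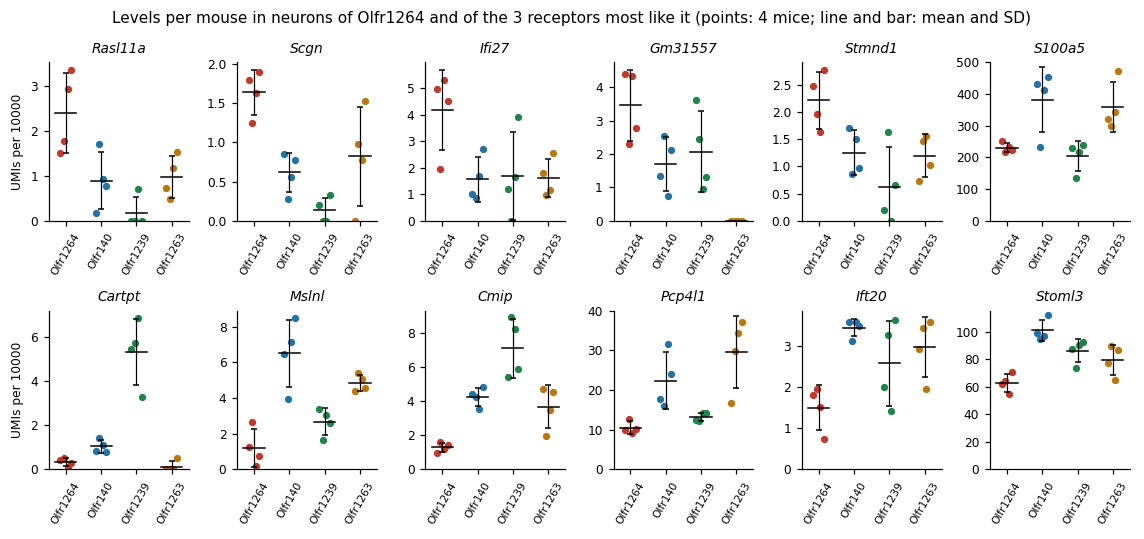
Level of 12 genes in UMIs per 10000 in the Olfr1264 neurons and in the neurons of Olfr140, Olfr1239 and Olfr1263, with 1 point per mouse, the mean and the SD (bars cut off at 0). Rasl11a (2.39 ± 0.887) was higher and Cmip (1.30 ± 0.281) lower in the mean of the Olfr1264 neurons than in each of the other populations, while Cartpt was as low in the Olfr1263 neurons (0.127 ± 0.255).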

How the data were processed

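Main olfactory epithelia of 4 mice were dissociated with papain, live nucleated cells were sorted (Hoechst-positive, DRAQ7-negative), and libraries were made with 10x Chromium 3′ v3.1 chemistry. Per the submitters' processing notes and the study's methods, the authors counted reads with Cell Ranger 6.0.1 on GRCm38, with receptor gene 3′ ends redrawn. The deposited matrices hold UMI counts per gene and barcode, not normalized. The deposited cell metadata give cell type, receptor identity and cluster as other, non-numeric annotation, used as the authors set them. No batch is labelled.

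Counts were summed per mouse and group of neurons, 1430 receptor genes were left out, and groups were compared with edgeR 4.0.16 (R 4.3.3, quasi-likelihood test, filterByExpr, Benjamini-Hochberg at 0.05). The mouse was a block, since both sums of a mouse come from 1 animal and library. Deviations of the paired sums correlated at 0.207, 0.295, 0.0679 and 0.0539 in mice 1 to 4 against the cluster, at 0.042 to 0.278 against all others and at −0.0123 to 0.103 against the similar receptors. TMM factors were taken from genes with a mean of at least 2 UMIs per 10000. This was chosen after a test on simulated data in which factors from all kept genes shifted the estimates. The chosen setting shifted them downward too. In the comparison with the cluster the median error of log2 changes was −0.0579 at the chosen setting, −0.148 with all kept genes and −0.0267 with size factors (RLE). Against the similar receptors it was −0.0250 at the chosen setting and −0.00416 with all kept genes. At the chosen setting that test recovered 73% of 2-fold and 99% of 4-fold changes in the comparison with the cluster (9945 genes tested). Only genes at 1 UMI per 10000 or more were changed in it, with a fixed spread and no pairing by mouse. Recovery of genes below that level was not tested. P-values rest on the spread between 4 mice after each gene's variance was drawn toward that shared by all genes. They do not measure 1 gene's own spread between mice. Alternatives were DESeq2 1.42.0, other scaling and filters, no block, subsets of neurons, thinning, and leaving out each mouse.

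Named genes were, against the cluster, the 12 largest changes each way, and otherwise the 5 largest, among genes called, changed alike in 4 mice and at 0.5 UMIs per 10000 or more in the higher group, plus called list members and markers. The members and the gene lists were chosen with earlier results of these data known. Of 55511 features, 55130 were matched by ID to GENCODE M21 (GRCm38). Protein identity came from global alignment (Biopython 1.88). Scrublet (scanpy 1.11.5) called 7 to 47 barcodes per library, and in mouse 2 it marked 0.123% and did not work, so the 4% with the highest scores were left out as an alternative. Counts per neuron were thinned with Python 3.11.15, and intervals came from scipy 1.17.1.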

Additional observations from a re-analysis of the deposited data

Results flagged for a closer look

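Level sets of 4 mice were examined for a mouse whose gap to the nearest other exceeded Dixon's 95% critical share of the range, which chance passes in about 1 in 20 sets, and 5 of 69 sets did so. The Gm49542 level of the Olfr1264 neurons was 1.38 in mouse 1 against 0.532 to 0.583 in the others. Single UMIs set 3 of the others in the Olfr1264 neurons, with Cpn1 at 0.177 in mouse 2, Nqo1 at 0.108 in mouse 3 and Pcdh7 at 0.146 in mouse 4, each 0 in the remaining mice. Cabp4 in the other Ventral neurons was at 0.415 in mouse 4 against 0.476 to 0.489.

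Olfr1264 transcripts outside the mature neurons stood above the share in basal, sustentacular and microvillar cells (0.126%, Wilson 95% interval 0.0489% to 0.323%), with 0.398% of iOSN2 and 0.693% of iOSN1 cells holding a UMI. Both intervals (from 0.155% and 0.318%) overlapped that of the background, and the difference was not tested.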

How the results depend on the processing

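The counts of called genes against the cluster, all other neurons and the similar receptors were 89, 115 and 26. They were 46, 63 and 6 with DESeq2, 58, 71 and 12 in neurons with exactly 1 receptor detected, 30, 38 and 10 after thinning to 5000 UMIs, 46 to 66, 71 to 94 and 8 to 16 without 1 mouse, and 67 against all other neurons with at least 10 counts in each member sum. Thinning and single receptors leave fewer neurons; otherwise the cause was not tested. Without the replicate block (the pairing by mouse) they were 69, 100 and 18. With factors from all kept genes, chosen after seeing the data, they were 114, 165 and 26 (25 higher and 89 lower against the cluster, 30 and 135 against all others), the median log2 change of all genes being −0.18 and −0.21 in place of −0.05 and −0.08. Of the called genes 23, 44 and 7 kept their call without any 1 mouse, and 20, 27 and 4 also under every other alternative that gave them an adjusted p; the minimum of 10 counts drops low genes such as Cartpt, Ptn and Tuba4a. One direction reversed among called genes, H2bc21 against the similar receptors at −0.0191 after thinning. The share among identified neurons was a description with no test. Low genes were limited by depth, since 289718 UMIs in all allow 0.104 UMIs per 10000 at a count of 0.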
